A study of Mus musculus with 15 samples.

Results

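Expression of 42 genes of the lysosome and of autophagy was examined in RNA-Seq libraries of cultured mouse cardiomyocytes. The genes were taken by symbol from a list of lysosomal enzymes, lysosomal membrane proteins, subunits of the lysosomal proton pump, their transcription factors and the autophagy machinery. All 42 were among the 14337 genes with values, and all 42 were among the 12848 genes tested, which are those whose log2 RPKM averaged 0 or more over the libraries. The cells were isolated from whole hearts of wild-type C57/BL6 pups aged 1 to 3 days, so other heart cells could be present. In all groups 5 days of culture were followed by 24 h of starvation in medium with 0.5% FBS, treatment from day 6 and lysis on day 8. The 3 control libraries (S1, S2 and S3) came from cells given saline, and the 4 AngII libraries (S5, S6, S7 and S8) from cells given 1 µM angiotensin II, a peptide hormone that makes cardiomyocytes enlarge. The 4 ldCil libraries (S9, S10, S11 and S12) came from cells given 20 nM cilengitide, a cyclic peptide that binds αv integrins, and S13, S14, S15 and S16, the 4 AngII + ldCil libraries, from cells given both. Expression is given as log2 RPKM, a read number divided by transcript length and library total, which the authors had put through conditional quantile normalisation, so levels can be set side by side between genes. The base of the logarithm is not written in the deposited table and was taken as 2. No read counts were used here, and the sequencing depth behind the values is therefore unknown. Whether replicates came from separate cultures is not stated in the labels, and the p-values then reflect no more than the variation among these libraries, possibly technical.

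Lysosomes are acidic compartments in which proteins, lipids and glycogen are broken down. In autophagy, a double membrane closes around cytoplasm or a damaged organelle and then fuses with a lysosome, where the cargo is digested. Cardiomyocytes are long lived and rich in mitochondria, and inherited loss of lysosomal proteins such as acid alpha-glucosidase or LAMP2 causes heart muscle disease. TFEB and TFE3 bind the CLEAR element, whose core is CACGTG, in the promoters of many lysosomal genes.

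The CLEAR core was searched in RefSeq promoters of GRCm38.p6, taken from 250 bases before to 50 bases after each start in that set. These starts can differ from the ends of the gene coordinates given below. A promoter window was found for 33 of the 42 genes, with 38 windows in all. CACGTG, which reads the same on both strands, was in 13 of these 38 windows (34.2%), each of a different gene, and in 7.15% of all 32851 promoter windows. The longer TCACGTGA, which contains it, was in 6 of the 38 windows (15.8%) and in 0.974% of all windows. The full CLEAR palindrome, which extends TCACGTGA by 1 base on each side, was in 0 of the 38 and in 0.326% of all windows. Counted by gene, CACGTG was in 39.4% of the 33, and in 21.6% of 97 other lysosome and autophagy genes with a window. It was in 8.09% of all genes with a window. The full palindrome was in 4 of those 97. The 13 genes with the core were Ctsa, Ctsd, Ctsf, Ctsl, Gaa, Gla, Glb1, Lamp1, Mcoln1, Atp6v0d1, Atp6v1a, Atg5 and Atg7. The windows of Grn, Cd63 and Scarb2 held none. Those of Cd63 (chr10:128909095-128909394) and Scarb2 (chr5:92505608-92505907) lie inside the gene coordinates given below. The sequence at the outermost start of these genes was therefore not searched. A match of these letters describes the window and shows no binding. The sequences shown are those of the 3 genes that had both the core and an unadjusted p under 0.05 in a comparison below. Capitals mark CACGTG, or TCACGTGA where the longer form is complete, and each sequence is written 5′ to 3′ on the strand of its gene. Lamp1 had 4 cores, which began 61, 45, 28 and 15 bases before the start (chr8:13159086-13159160, plus strand). Gla had 2, at 227 and 194 bases before the start (chrX:134601180-134601246, minus strand), and Atp6v1a had 1, at 131 bases before it (chr16:44139371-44139404, minus strand). The Atp6v1a stretch lies inside the gene coordinates given below (chr16:44085402-44139705), so it is not upstream of the outermost start of that gene.
Lamp1: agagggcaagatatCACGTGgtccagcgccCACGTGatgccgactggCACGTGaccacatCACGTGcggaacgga
Gla: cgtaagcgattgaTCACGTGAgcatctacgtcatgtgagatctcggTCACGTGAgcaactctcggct
Atp6v1a: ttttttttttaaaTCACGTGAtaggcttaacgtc

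The 42 genes were expressed above the typical gene. The median of their mean levels was 5.92 log2 RPKM, against 3.85 over all genes tested. The cathepsin Ctsb (9.13), the lysosomal membrane protein Lamp1 (8.99) and the cathepsin Ctsl (8.91) had the highest mean levels, and Ctsh (3.09) and Atg5 (3.15) the lowest. Their median SD over the 15 libraries was 0.252, against 0.292 over all genes. The share of a gene's variance that lay between the 4 groups had a median of 18.6%, against 18.3% over all genes. It was highest for Tfe3, at 56.2%, followed by Hexa at 48.7%, and lowest for Psap, the precursor of the saposins, at 3.08%.

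**Figure D1:**
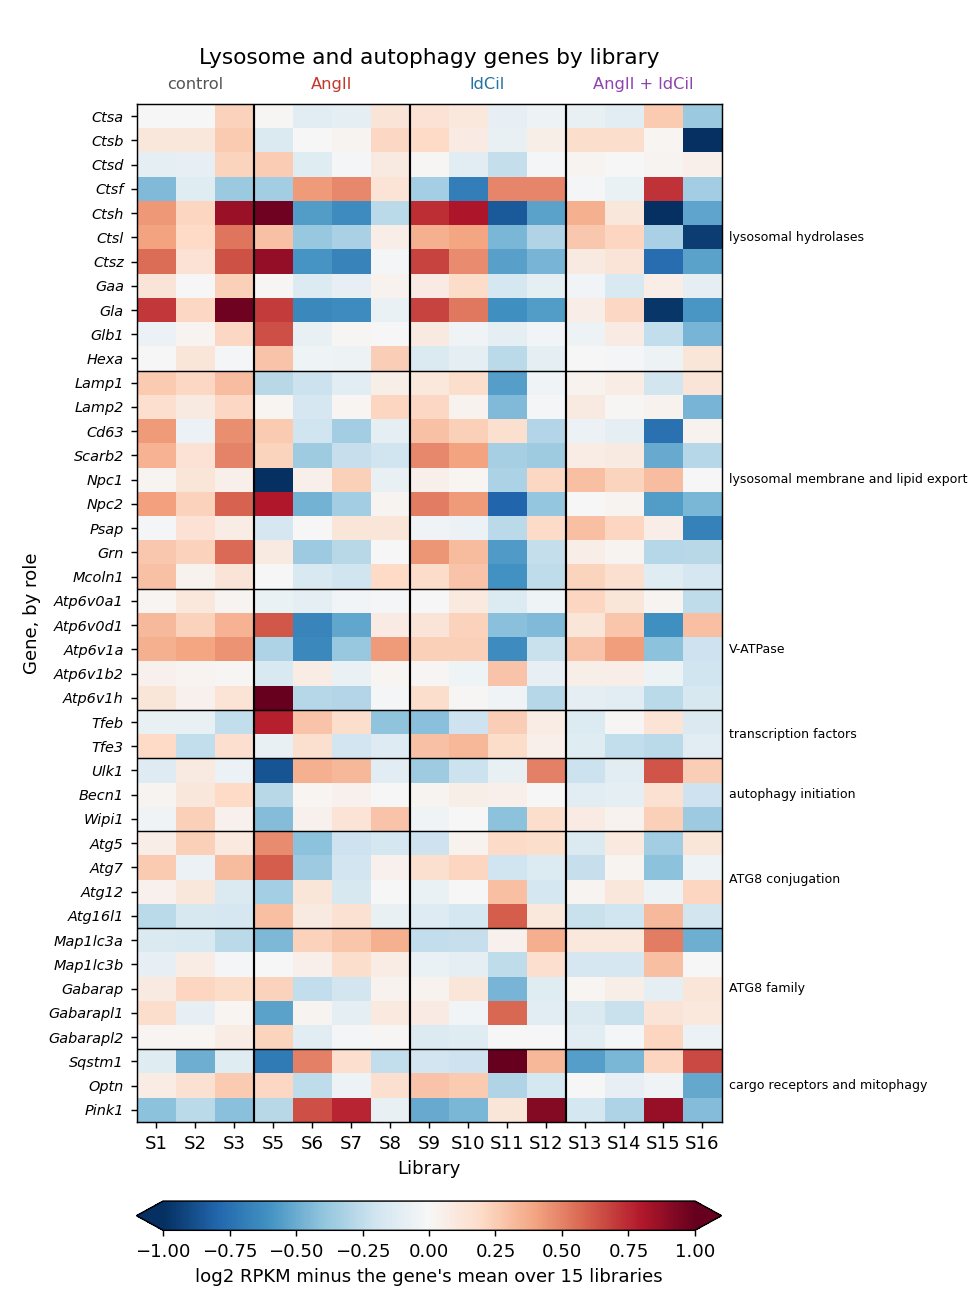
Level of each of the 42 genes (rows, ordered by role) in each of the 15 libraries (columns, by group), as the difference in log2 RPKM from the gene's mean over the 15 libraries, with values beyond 1 in either direction in the end colours. Colours change within groups as well as between them; library S5 was the highest for 13 genes and the lowest for 7.

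Some libraries stood apart in many of these genes. S5 (AngII) held the highest value for 13 of the 42 and the lowest for 7, and S3 (control) the highest for 10. S11 (ldCil) held the lowest for 9 and the highest for 5. In AngII + ldCil, S15 held the lowest for 7 and the highest for 6, and S16 the lowest for 10 and the highest for 0. Genes of the interferon response, of which 17 were tested, also differed between libraries within groups. Their mean, relative to the mean of the 15 libraries on the log2 scale, was between 2.15 and 2.71 in S1, S3, S5, S9 and S10, and 0.50 in the next library, S2. Those 5 libraries belong to the control, AngII and ldCil groups, and none to AngII + ldCil. The difference was not confined to interferon genes. The first principal component, the axis of largest difference between libraries, held 49.0% of the variance of all genes tested. Computed over 12806 genes, without the 42, it scored 37.2 to 47.9 in those 5 libraries. S6, S7, S11, S12 and S15, from each of the treated groups, scored −42.0 to −38.0, and S2, S8, S13, S14 and S16 lay between. Its part in the comparisons was not tested. Cardiomyocyte genes were the most abundant markers, with a mean level of 11.7 for Actc1, and the mean of their 10 genes stayed between −0.18 and 0.20. Some of the 10 varied far more than that mean, in opposite directions. Ttn ran from 7.78 in S5 to 10.53 in S16, and Mb from 8.11 in S16 to 10.49 in S6. Quantile normalisation can limit how far the most abundant genes vary. Actc1 had 11.73 and Nppa 11.98 in every control library. The narrow range of the cardiomyocyte mean is therefore no measure of cardiomyocyte content. Macrophage RNA was present too: Lyz2 had a mean level of 7.37 and Cd68 of 4.06. The mean of the 13 macrophage genes ran from −0.02 to 0.36 in the control libraries, from −0.39 to 1.07 in AngII, from −0.59 to 0.29 in ldCil and from −1.33 to 0.62 in AngII + ldCil, with its highest value in S5 and its lowest in S16. The mean of the 8 fibroblast genes was −1.47 in S16 and between −0.36 and 0.49 in the others. In such bulk samples fewer cells of a type and less RNA per cell cannot be told apart.

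AngII was compared with control to ask what the hypertrophic stimulus does to these genes. At an adjusted p under 0.05 (limma, Benjamini-Hochberg over all genes tested) 0 of the 42 passed, as did 0 of all 12848 genes, and the smallest adjusted p of the 42 was 0.782. The fitted log2 fold change was below 0 for 31 of the 42 genes and above 0 for 11, with a median of −0.14 and a range from −0.79 to 0.63. Over all genes tested the median was 0.02, and 46.3% lay below 0. At an unadjusted p under 0.05 stood 3 of the 42 (7.14%), all lower, beside 6.04% of all genes in either direction and 2.63% in the lower one. These were Lamp1 (chr8:13159161-13175338 in GRCm38), Grn (chr11:102430315-102437048) and Atp6v1a (chr16:44085402-44139705).

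The 9 genes of the lysosomal membrane and of lipid export, with which the luminal proteins Psap and Grn were placed, all had a negative log2 fold change for AngII against control, with a median of −0.37, and 7 of the 9 had one without S5, with a median of −0.35. Lamp1, a glycoprotein that coats the inner face of the lysosomal membrane, had a log2 RPKM of 9.26, 9.20 and 9.30 in the control libraries, 8.72, 8.78, 8.88 and 9.05 in AngII, 9.10, 9.17, 8.44 and 8.96 in ldCil, and 9.03, 9.07, 8.81 and 9.12 in AngII + ldCil. The 3 control libraries lay above all 12 others. Lamp1, Grn and Atp6v0a1 were the 3 of the 42 (7.14%) whose AngII libraries all lay below control, beside 3.68% of all genes. The Lamp1 log2 fold change for AngII against control was −0.40 (SE 0.160, 95% interval −0.74 to −0.054, unadjusted p = 0.0262 and adjusted p = 0.782 from limma). Leaving out S5 brought it to −0.35, and without S1, S3, S5 or S6 its unadjusted p was above 0.05. The exact 2-sided permutation test of the same libraries gave p = 0.0571, the smallest that 3 against 4 libraries allow.

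Grn encodes progranulin, which is carried to lysosomes and cut there into granulins. It had a log2 RPKM of 7.63, 7.58 and 7.92 in control, 7.44, 7.0, 7.08 and 7.36 in AngII, 7.80, 7.68, 6.79 and 7.12 in ldCil, and 7.42, 7.39, 7.07 and 7.08 in AngII + ldCil. Neither the AngII nor the AngII + ldCil libraries overlapped with control, whereas S9 and S10 of ldCil lay in the control range and S11 and S12 below it. For AngII against control the log2 fold change was −0.49 (SE 0.214, unadjusted p = 0.0374 and adjusted p = 0.782 from limma), and it was −0.39 without S3. Its unadjusted p rose above 0.05 without S1, S3, S6 or S7.

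Cd63 (chr10:128900989-128912822), a tetraspanin of late endosomes and lysosomes, had a log2 RPKM of 8.14, 7.65 and 8.17 in control, 7.97, 7.51, 7.37 and 7.62 in AngII, 8.00, 7.95, 7.87 and 7.42 in ldCil, and 7.65, 7.62, 6.96 and 7.75 in AngII + ldCil. S2 lay within the range of each treated group, and S15 was the lowest library. Scarb2 (chr5:92441314-92506833), the receptor that carries glucocerebrosidase to lysosomes, had 6.96, 6.76 and 7.10 in control, 6.84, 6.26, 6.38 and 6.41 in AngII, 7.09, 7.01, 6.28 and 6.25 in ldCil, and 6.68, 6.70, 6.11 and 6.33 in AngII + ldCil. Each of the 4 AngII + ldCil libraries lay below the control range, while S5, S9 and S10 lay within it. For both Cd63 and Scarb2, S1, S3, S5, S9 and S10 were the highest libraries, as they were for the interferon genes. The part of that difference between libraries in these values was not tested. For AngII against control the log2 fold changes were −0.37 for Cd63 and −0.47 for Scarb2, with unadjusted p-values of 0.105 and 0.0565 from limma. Among the other genes of this role, Npc2 and Npc1, which pass cholesterol out of the lysosome, had log2 fold changes of −0.41 and −0.31. Npc2 also had its highest values in S1, S3, S5, S9 and S10. Mcoln1, a lysosomal calcium channel, had −0.19, Lamp2 −0.13 and Psap −0.05. The Npc1 value rested largely on S5, with a log2 RPKM of 3.02. Npc1 had 4.27, 4.46 and 4.15 in S6, S7 and S8, and 4.25 to 4.34 in control.

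**Figure D2:**
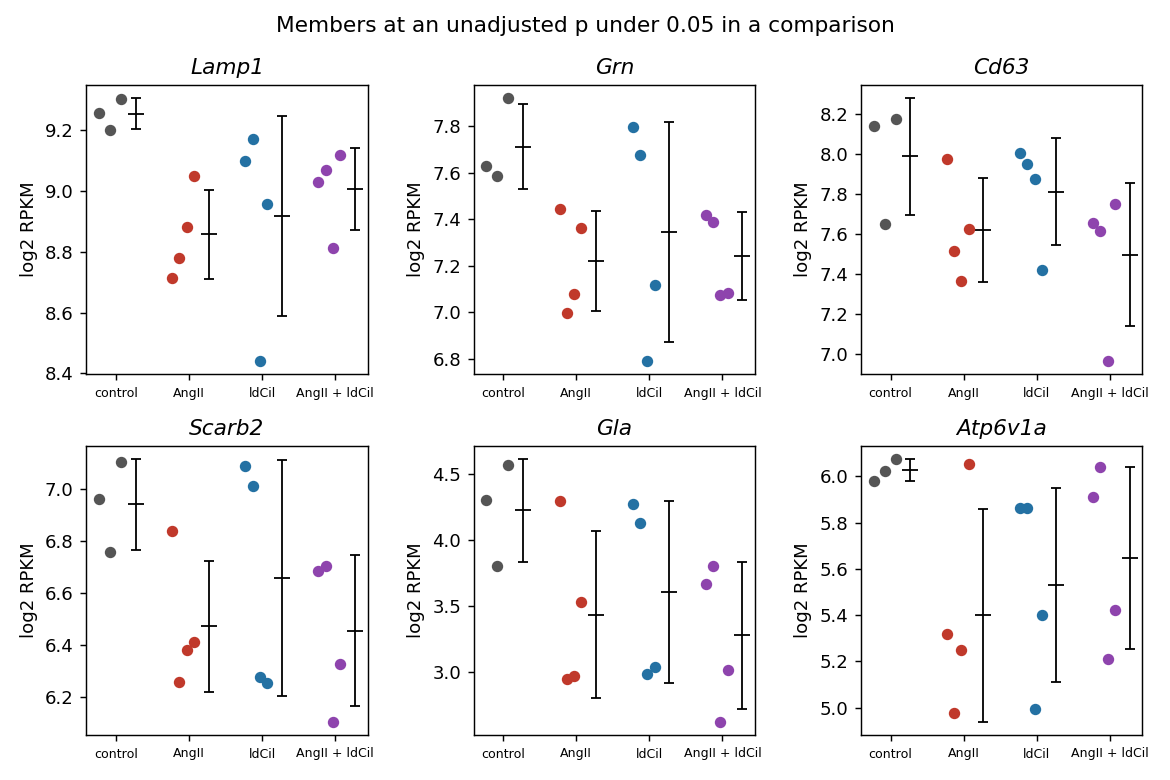
Log2 RPKM (vertical axes) of the 6 genes with an unadjusted p under 0.05 in at least 1 comparison, by group (horizontal axes), with each library as a point and each group's mean and SD. For Lamp1 all 3 control libraries lie above the 12 others, while for Gla the treated libraries run from 2.63 to 4.30, against 3.80 to 4.57 in control.

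The 11 lysosomal hydrolases were mixed for AngII against control, with 7 below 0, 4 above 0 and a median log2 fold change of −0.14. Gla (chrX:134588149-134601125), the alpha-galactosidase that clears glycosphingolipids, had the lowest value of all 42 genes, −0.79 (SE 0.404, unadjusted p = 0.0711 from limma). Its log2 RPKM was 4.30, 3.80 and 4.57 in control, 4.30, 2.95, 2.97 and 3.53 in AngII, 4.27, 4.13, 2.99 and 3.04 in ldCil, and 3.67, 3.81, 2.63 and 3.02 in AngII + ldCil. The 5 highest libraries were S1, S3, S5, S9 and S10, the same 5 as for the interferon genes, and the part of that difference between libraries in the Gla result was not tested. The cysteine cathepsins Ctsh, Ctsz and Ctsl had log2 fold changes of −0.62, −0.55 and −0.46, whereas Ctsf had 0.49. Ctsh, Ctsz and Ctsl, though not Ctsf, also had their highest values in S1, S3, S5, S9 and S10. Ctsb, a cysteine cathepsin with the highest level of all, had a log2 RPKM of 9.25, 9.25 and 9.39 in control, 8.99, 9.13, 9.16 and 9.34 in AngII, 9.33, 9.21, 9.06 and 9.19 in ldCil, and 9.30, 9.30, 9.15 and 7.91 in AngII + ldCil. S16, which was also the lowest in the macrophage and fibroblast genes, was far below the other 14 libraries, which lay between 8.99 and 9.39; the part of those cells in the value was not tested. Gaa, the acid alpha-glucosidase that degrades glycogen, had a log2 fold change of −0.17, the carboxypeptidase Ctsa −0.09, the aspartic protease Ctsd 0.04, the hexosaminidase subunit Hexa 0.07 and the beta-galactosidase Glb1 0.09.

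The V-ATPase is the pump that acidifies the lysosome, and 4 of its 5 subunits had a negative log2 fold change for AngII against control. Atp6v1a, the subunit that hydrolyses ATP, had a log2 RPKM of 5.98, 6.02 and 6.08 in control, 5.32, 4.98, 5.25 and 6.05 in AngII, 5.86, 5.86, 4.99 and 5.40 in ldCil, and 5.91, 6.04, 5.21 and 5.42 in AngII + ldCil. The 3 control libraries lay close together, S8 and S14 lay among them, and the other treated libraries lay below. Its log2 fold change for AngII against control was −0.63 (SE 0.267, 95% interval −1.20 to −0.055, unadjusted p = 0.0339 and adjusted p = 0.782 from limma). It ranged from −0.84 without S8 to −0.49 without S6, and without any 1 of S1, S2, S3, S5, S6 or S7 its unadjusted p was above 0.05. Atp6v0a1, a membrane subunit and the pump gene with the highest level, had a log2 RPKM of 6.49, 6.58 and 6.50 in control, 6.41, 6.38, 6.45 and 6.46 in AngII, 6.48, 6.57, 6.34 and 6.43 in ldCil, and 6.69, 6.59, 6.50 and 6.22 in AngII + ldCil. The AngII libraries lay just below control without overlap, with a log2 fold change of −0.10 and an unadjusted p of 0.382 from limma. The log2 fold changes of the other subunits were −0.42 for Atp6v0d1, −0.06 for Atp6v1b2 and 0.02 for Atp6v1h.

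The transcription factors of the lysosomal genes, Tfeb and Tfe3, had log2 fold changes of 0.34 and −0.10 for AngII against control. Tfe3, the one with the higher level, had a log2 RPKM of 4.55, 4.11 and 4.52 in control, 4.28, 4.51, 4.15 and 4.22 in AngII, 4.65, 4.68, 4.53 and 4.40 in ldCil, and 4.23, 4.10, 4.08 and 4.24 in AngII + ldCil. The AngII + ldCil libraries lay below all 4 ldCil libraries, and both other groups overlapped with each of them. The difference between AngII + ldCil and ldCil was not tested here. The share of all genes separated in this way was not computed, so the separation of Tfe3 cannot be judged. Of the 13 genes with a CACGTG core in the promoter, 10 had a negative log2 fold change for AngII against control, with a median of −0.19, beside 15 of the 20 with a window but no core, with a median of −0.10.

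Genes that start autophagosome formation had small log2 fold changes for AngII against control. These were −0.17 for Becn1, a subunit of the lipid kinase complex that marks the forming membrane, −0.07 for Wipi1, which binds that lipid, and −0.04 for the kinase Ulk1. S5 was the lowest library for each of the 3, with a log2 RPKM of 4.78 for Ulk1 against 5.53 to 6.00 in the other AngII libraries. Without S5, 1 of the 3 was below 0 and 2 were above, and their median went from −0.07 to 0.07. Becn1, with the highest level of the 3, had a log2 RPKM of 5.95, 6.05 and 6.13 in control, 5.65, 5.95, 5.97 and 5.92 in AngII, 5.96, 5.99, 5.98 and 5.93 in ldCil, and 5.82, 5.84, 6.08 and 5.72 in AngII + ldCil. S5 was the lowest library, and each treated group overlapped with control. Of the genes that attach ATG8 proteins to the membrane, Atg16l1 had a log2 RPKM of 4.20, 4.30 and 4.30 in control, 4.76, 4.55, 4.62 and 4.39 in AngII, 4.34, 4.29, 5.07 and 4.57 in ldCil, and 4.24, 4.26, 4.79 and 4.28 in AngII + ldCil. It was the only one of the 42 whose AngII libraries all lay above control, which held for 5.06% of all genes tested, and its log2 fold change was 0.32 (SE 0.184, unadjusted p = 0.105 from limma). Its partners Atg5 and Atg12 had −0.22 and −0.10, and Atg7, the enzyme that activates ATG12 and the ATG8 proteins, −0.15.

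Of the ATG8 proteins, which coat the autophagosome and bind cargo receptors, Gabarap had the highest level. Its log2 RPKM was 7.61, 7.73 and 7.70 in control, 7.75, 7.27, 7.33 and 7.55 in AngII, 7.55, 7.64, 7.05 and 7.40 in ldCil, and 7.53, 7.57, 7.43 and 7.64 in AngII + ldCil. S5 was the highest library and S11 the lowest, and each treated group reached the control range. For AngII against control the log2 fold changes were −0.20 for Gabarap, −0.17 for Gabarapl1, −0.01 for Gabarapl2, 0.09 for Map1lc3b and 0.29 for Map1lc3a. Gabarapl2 had the smallest range of all 42 genes over the 15 libraries, 0.36 log2 units.

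The cargo receptors and the mitophagy kinase Pink1 varied within groups. Sqstm1, which links ubiquitin-tagged cargo to ATG8 proteins, had a log2 RPKM of 8.27, 7.91 and 8.28 in control, 7.69, 8.90, 8.56 and 8.15 in AngII, 8.21, 8.19, 9.61 and 8.73 in ldCil, and 7.85, 7.94, 8.61 and 9.06 in AngII + ldCil. S11 and S16 were the highest libraries, S5 was the lowest, and the groups overlapped. Pink1, which marks damaged mitochondria for removal, had the highest log2 fold change of the 42 genes for AngII against control, 0.63 (SE 0.366, unadjusted p = 0.109 from limma). The value was 0.17 for Sqstm1 and −0.15 for Optn, a receptor used in mitophagy.

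**Figure D3:**
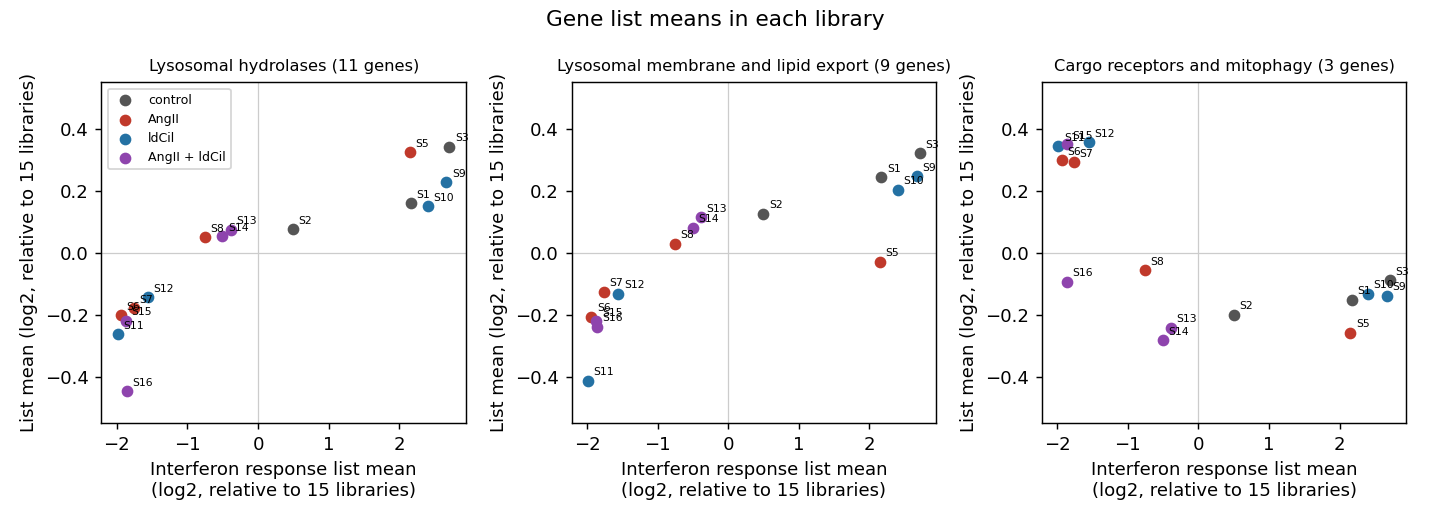
Mean of the hydrolase, the membrane and lipid export, and the cargo receptor and mitophagy genes (vertical axes) against the mean of the interferon response genes (horizontal axes) in each library, both as log2 differences from the mean of the 15 libraries. The 5 libraries with the highest interferon mean (S1, S3, S5, S9 and S10, 2.15 to 2.71) come from 3 groups and have the 5 highest hydrolase means, 0.15 to 0.34.

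The means of these roles differed between libraries of the same treatment. The hydrolase mean, relative to the 15 libraries on the log2 scale, was 0.32 in S5 and −0.20, −0.18 and 0.05 in the other AngII libraries, and 0.23 and 0.15 in S9 and S10 but −0.26 and −0.14 in S11 and S12. Its 5 highest libraries, S1, S3, S5, S9 and S10, were also the 5 highest in the interferon genes. The cargo receptor and mitophagy mean was between 0.29 and 0.36 in S6, S7, S11, S12 and S15, where the interferon mean lay between −1.98 and −1.55, and it was −0.09 in S16, where the interferon mean was −1.86. Because the libraries fall into separate clusters in the interferon genes, no correlation across libraries was computed, and the part of this difference in the comparisons was not tested.

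ldCil was compared with control to ask what low-dose cilengitide does without AngII. At an adjusted p under 0.05 (limma) 0 of the 42 passed, and the smallest adjusted p was 0.966. At an unadjusted p under 0.05 there were also 0 of the 42, beside 1.95% of all genes. The log2 fold change was below 0 for 32 of the 42, with a median of −0.11, and the 9 membrane and lipid export genes were all below 0, with a median of −0.25. Over all genes the median was 0.00. Without overlap below control lay 4 of the 42 (9.52%), beside 3.37% of all genes: Lamp1, Atp6v1a, Gabarapl2 and Hexa, with log2 fold changes of −0.34, −0.50, −0.10 and −0.18. Above control without overlap lay 0 of the 42, beside 3.5% of all genes. The highest log2 fold changes were 0.53 for Sqstm1 and 0.38 for Pink1. AngII and ldCil were compared with the same 3 control libraries, so these values are not independent of those for AngII.

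AngII + ldCil was compared with AngII to ask whether ldCil shifts AngII-treated cells. The adjusted p was 1.00 for all 42 genes (limma), and at an unadjusted p under 0.05 there were 0 of the 42, beside 2.58% of all genes. The log2 fold changes ran from −0.31 for Glb1 to 0.46 for Npc1, with a median of −0.04. In both of these genes S5 lay apart from the other AngII libraries. It had a log2 RPKM of 3.02 for Npc1, against 4.15 to 4.46, and of 4.25 for Glb1, against 3.54 to 3.62. Libraries that did not overlap were found for 0 of the 42, beside 0.584% of all genes in the lower and 0.965% in the higher direction. Below 0 lay 29 of the 42, beside 47.6% of all genes, but 21 of the 42 without S5 and 18 without S16, with medians of 0.00034 and 0.025. The 11 hydrolases all had negative values, with a median of −0.11, but 5 of the 11 without S5 and 6 without S16, with medians of 0.0096 and −0.031. Of the macrophage genes 12 of 13 and of the fibroblast genes 6 of 8 were also below 0 in this comparison, with medians of −0.32 and −0.07. S16 had the lowest mean in the hydrolases (−0.45), the macrophage genes (−1.33) and the fibroblast genes (−1.47), and S5 the highest of its group in the hydrolases (0.32) and the macrophage genes (1.07). Their part in the hydrolase values was not tested. The V-ATPase subunits had a median of 0.07. For Lamp1 the value was 0.15 (SE 0.149, 95% interval −0.17 to 0.47) and for Atp6v1a 0.25 (SE 0.248, 95% interval −0.28 to 0.78). Both intervals include 0, and they also include differences as large as those between AngII and control taken with the opposite sign for Lamp1 and Atp6v1a.

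**Figure D4:**
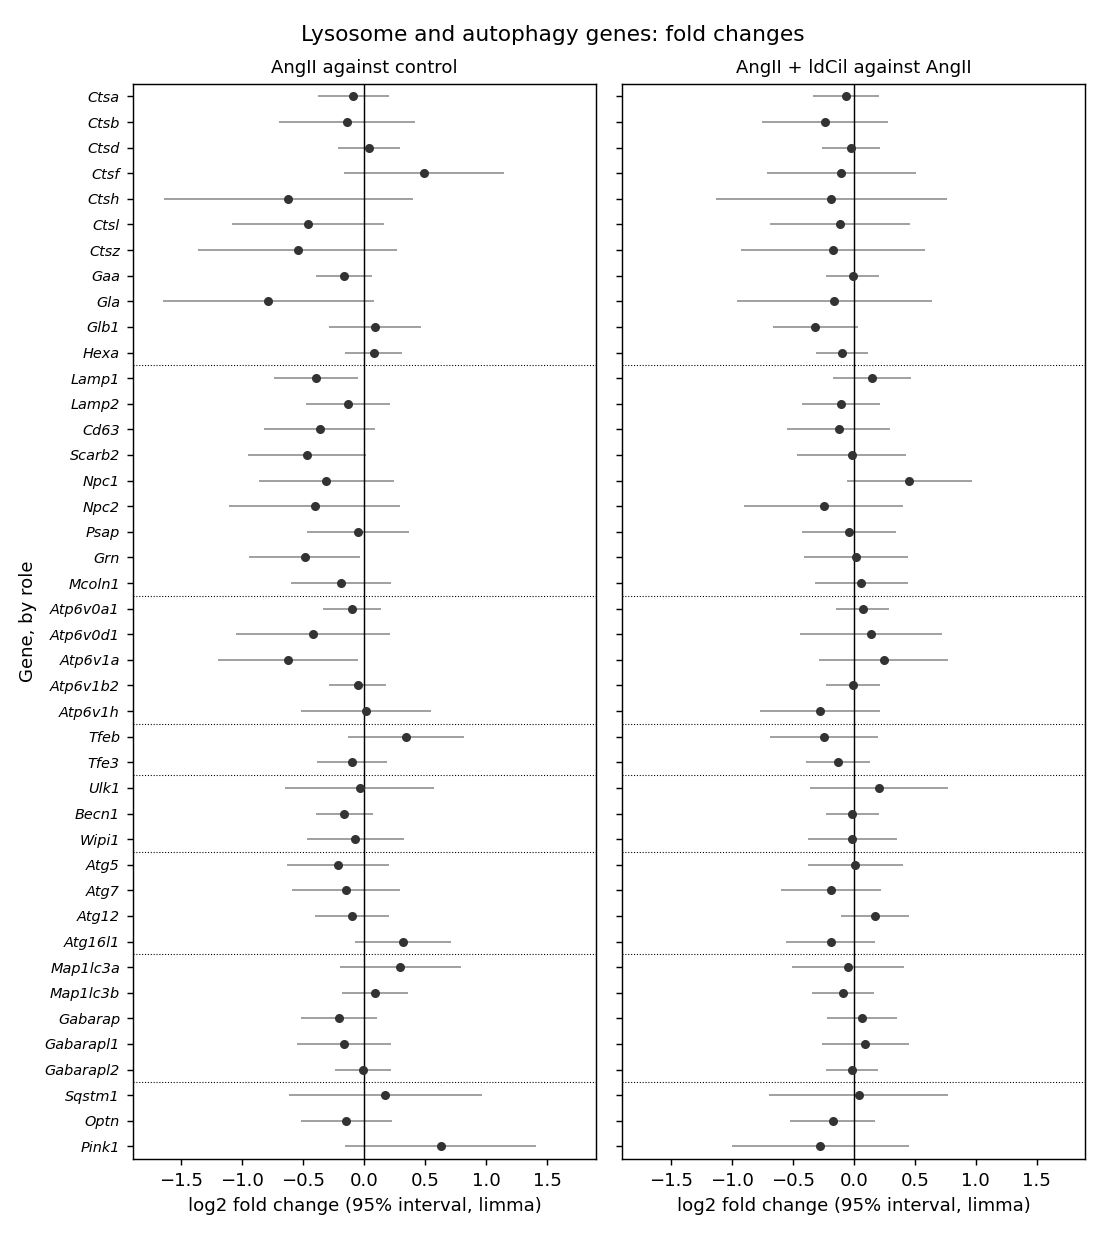
Log2 fold change of each of the 42 genes for AngII against control and for AngII + ldCil against AngII (horizontal axes), with 95% intervals from limma. For AngII against control 31 of 42 points lie below 0 and the intervals of Lamp1, Grn and Atp6v1a leave out 0, and for AngII + ldCil against AngII all 42 intervals include 0.

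AngII + ldCil was also compared with control. At an adjusted p under 0.05 (limma) 0 of the 42 passed, and the smallest adjusted p was 0.849. The log2 fold change was below 0 for 31 of the 42, with a median of −0.16, beside 0.05 over all genes. At an unadjusted p under 0.05 stood 4 of the 42 (9.52%), all lower, beside 5.62% of all genes in either direction and 2.92% in the lower one. Gla had a log2 fold change of −0.95 (SE 0.404, unadjusted p = 0.0341 from limma), and −0.73 without S15. Cd63 had −0.49 (SE 0.213, unadjusted p = 0.0364 from limma), and −0.31 without S15. Scarb2 had −0.48 (SE 0.226, unadjusted p = 0.0490 from limma) and Grn −0.47 (SE 0.214, unadjusted p = 0.0446 from limma), and each had −0.37 without 1 library, S15 for Scarb2 and S3 for Grn. All 4 had an adjusted p of 0.849 from limma. S1, S3, S5, S9 and S10 were the highest libraries for Gla, Cd63 and Scarb2, as for the interferon genes, though not for Grn. None of these libraries is in AngII + ldCil. The part of that difference between libraries in these values was not tested. The unadjusted p from limma was above 0.05 without S1, S3, S15 or S16 for Gla and without S1, S3 or S15 for Cd63. For Scarb2 and for Grn it was above 0.05 without any 1 of 7 libraries. The exact 2-sided permutation test gave p = 0.114 for Gla, 0.171 for Cd63, and 0.0571 for Scarb2 and for Grn. Without overlap below control lay 7 of the 42 (16.7%), beside 6.11% of all genes: Lamp1, Grn, Scarb2, Npc2, Ctsz, Atp6v1h and Optn. Above control without overlap lay 0 of the 42, beside 7.35% of all genes.

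The interaction asks whether the effect of AngII differed with and without ldCil. At an adjusted p under 0.05 (limma) 0 of the 42 passed, and the smallest adjusted p was 0.958. The interaction was above 0 for 27 of the 42, with a median of 0.09 against 0.02 over all genes, and for all 9 membrane and lipid export genes, with a median of 0.26. At an unadjusted p under 0.05 stood 1 of the 42, Lamp1, which was higher, beside 3.86% of all genes in either direction and 1.84% in the higher one. Its interaction was 0.49 on the log2 scale (SE 0.219, unadjusted p = 0.0420 from limma), from log2 fold changes of −0.40 for AngII and −0.34 for ldCil against control and −0.25 for both together. Leaving out S11 brought it to 0.33, and its unadjusted p was under 0.05 in 4 of the 15 fits that each left out 1 library. The largest values of the 42 were 0.74 for Atp6v1a and 0.57 for Atp6v0d1, and the lowest was −0.66 for Pink1.

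A list of 121 other genes of these pathways, all tested, was read beside the 42. For AngII against control 87 of them had a negative log2 fold change, with a median of −0.09, and 8 (6.61%) had an unadjusted p under 0.05, 7 lower and 1 higher, beside the 6.04% of all genes. Among the 7 were Snap29, which fuses autophagosomes with lysosomes, with a log2 fold change of −0.41, and Atg2a, which transfers lipid to the growing autophagosome, with −0.34. For ldCil against control 91 were below 0, and 3 (2.48%) had an unadjusted p under 0.05, all lower, beside 1.95% of all genes. The smallest was that of Aga, a hydrolase of glycoproteins, with a log2 fold change of −0.39. The 11 other V-ATPase genes were all below 0 for AngII and for ldCil against control, with medians of −0.16 and −0.28, and all above 0 in the interaction, with a median of 0.31. These values also share the 3 control libraries and are not independent. For AngII + ldCil against AngII 65 of the 121 were above 0, with 2 (1.65%) at an unadjusted p under 0.05, beside 2.58% of all genes. Against control, AngII + ldCil had 4 (3.31%) at that level, all lower, beside 5.62% of all genes in either direction and 2.92% in the lower one. The interaction had 6 (4.96%), all higher, beside 3.86% in either direction and 1.84% in the higher one. None of the 121 had an adjusted p under 0.05 in any of the 5 comparisons.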

How the data were processed

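The authors deposited log2 RPKM values for 14337 genes in 15 poly(A)-captured libraries, made by conditional quantile normalisation, which adjusts for gene length and GC content. The submitters' processing notes name HISAT2, HTSeq and GRCm38 (mm10). Versions, annotation release and strandedness: not given in the sources used here. All libraries had the same 75th percentile, 4.93, and lowest values from −6.48 to −2.82. Identifiers were matched to GENCODE symbols of GRCm38 (14329 of 14337). Limma 3.58.1 in R 4.3.3 fitted 1 mean per group to all 15 libraries, for the 12848 genes whose log2 RPKM averaged 0 or more, with no covariate and a spread that follows the level. P-values are 2-sided, adjusted by Benjamini-Hochberg over all genes tested. The 42 genes and all lists were chosen with earlier results of these data known. Values in every library are given for genes with an unadjusted p under 0.05 in any comparison and for the gene of highest level in each role. Other pathway genes could be named at such a p, at most 3 per comparison. Alternatives were no filter, a filter at 2, 1 or 0.1 added to RPKM, median centring, fits of only the groups compared, and leaving out each library in turn. A fit without S5 and S16 was added after seeing the data. Without strand, reads of genes overlapping on opposite strands cannot be told apart. All 121 other pathway genes enter the counts, though not every gene the rule would name is reported by name here. Counts by role without S5 or S16 were also added after seeing the data.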

Additional observations from a re-analysis of the deposited data

Results flagged for a closer look

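Of 126 groups of 4 libraries examined, 8 had 1 library far from the other 3 by Dixon's test, and chance alone gives about 1 in 20. In the AngII group S5 stood apart for Glb1, at 4.25 log2 RPKM against 3.54 to 3.62 in the others, for Becn1, at 5.65 against 5.92 to 5.97, and for Map1lc3a, at 6.33 against 7.01 to 7.14. In the AngII + ldCil group S16 stood apart for Ctsb, at 7.91 against 9.15 to 9.30, for Lamp2, at 6.69 against 7.17 to 7.25, and for Optn, at 3.81 against 4.24 to 4.32. S15 stood apart for Cd63, at 6.96 against 7.62 to 7.75, and for Atg16l1, at 4.79 against 4.24 to 4.28. The effect of AngII on Lamp1 differed with and without ldCil by 0.49 on the log2 scale at an unadjusted p of 0.0420 from limma, with an adjusted p of 0.958.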

How the results depend on the processing

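No alternative gave a gene with an adjusted p under 0.05 in any comparison (limma). The median log2 fold change of the 42 genes for AngII + ldCil against AngII, −0.04, turned to 0.00034 without S5, 0.025 without S16 and 0.041 without both. No other median of all 42 genes and no gene given with an unadjusted p under 0.05 changed sign. Medians of single roles did, and the ones given here are examples. Without S5 that of the hydrolases for AngII + ldCil against AngII went from −0.11 to 0.0096. That of the autophagy initiation genes for AngII against control went from −0.07 to 0.07. For AngII + ldCil against AngII, that of the membrane and lipid export genes went from −0.02 to 0.07 without S5 and also without S16. Without S16 that of the cargo receptor and mitophagy genes for AngII + ldCil against control went from 0.21 to −0.02. At an unadjusted p under 0.05 the count of the 42 genes moved most. With only the groups compared it was 8 for AngII against control (8.18% of all genes), 2 for ldCil against control (3.20%) and 7 for AngII + ldCil against control (10.7%). Without S5 and S16 it was 12 for AngII against control (14.7% of all genes) and 0 for the interaction (6.25%). The cause was not tested. Leaving out 1 library at a time, the count ran from 0 (without S1, S3 or S6) to 11 (without S5, beside 12.9% of all genes) for AngII against control. It ran from 0 to 2 for ldCil against control, from 0 to 1 for AngII + ldCil against AngII, from 0 (without S1 or S3) to 8 (without S5) for AngII + ldCil against control and from 0 to 3 for the interaction. The median log2 fold change of the 42 ran from −0.17 to −0.09, −0.14 to −0.07, −0.07 to 0.02, −0.18 to −0.11 and 0.05 to 0.14 in the same order. Filters, added values and median centring left each count within 1.5 times and each median within the spread between libraries. Fits of only the groups compared could not be had for the interaction. No paired analysis was possible because the labels number the libraries through from S1 to S16 and the replicate numbers used here only follow accession order. The depth of the libraries is unknown, so low values carry an unknown counting error.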
